A study of Mus musculus with 6 samples.

Results

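Transcripts of the B cell receptor complex and of the B lineage, 9 genes in all, were compared between the spleens of lead-exposed and control mice. The genes were Cd79a, Cd79b, Ms4a1, Cd22, Blnk, Blk, Spib, Pax5 and Cr2, chosen by name, and each had 1 probe with a single gene symbol among the 18069 genes so named in the table. Comparisons rest on 2 arrays of BALB/c females exposed to 0.1 mM Pb from gestation day 8 and 3 arrays of BALB/c females that the labels call controls. All animals were 21 days old and each gave 1 array of spleen RNA read in 1 colour. The labels give neither the route of exposure nor the litters, so the spread between arrays is that between samples labelled as separate animals, and p-values cannot allow for a shared litter. The remaining Pb array, replicate 3, was set aside from the comparison because its values did not follow the probes. None of the 9 transcripts passed the test in either direction.

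B cells recognise antigen through surface immunoglobulin, which has almost no tail inside the cell and signals through the paired chains CD79A and CD79B. Kinases of the Src family such as BLK phosphorylate those tails, the adaptor BLNK gathers the enzymes that raise calcium, and CD22 damps the signal while CR2, a receptor for complement fragments, lowers the threshold for it. PAX5 and SPIB are transcription factors that hold the B cell programme in place. The spleen is a main site of mature B cells, which fill its follicles and marginal zones.

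Upstream sequence from RefSeq (GRCm38.p6) was at hand for 6 of the 9 genes, and 4 are printed here. Cd22 and Spib had both Pb arrays above the controls only after the correction described below, and Blnk and Cd79a had overlapping groups. Each printed sequence is the 250 bases before the start of the gene, 5′ to 3′ on the strand of the gene. Capitals mark matches to motifs of factors whose own transcripts were on the arrays, namely CCCNNGGG for EBF1, ATTTGCAT for the octamer factors, CAGGTG (or CACCTG on the other strand) for E2A and GAGGAAGT for PU.1 and SPIB.

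Cd22, chr7:30879029-30879278, minus strand: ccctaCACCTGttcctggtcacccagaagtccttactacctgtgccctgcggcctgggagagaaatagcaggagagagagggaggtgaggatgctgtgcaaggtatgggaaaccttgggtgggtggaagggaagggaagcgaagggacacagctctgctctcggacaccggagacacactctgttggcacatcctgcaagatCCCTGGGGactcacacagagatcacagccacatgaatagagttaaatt

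Spib, chr7:44532072-44532321, minus strand: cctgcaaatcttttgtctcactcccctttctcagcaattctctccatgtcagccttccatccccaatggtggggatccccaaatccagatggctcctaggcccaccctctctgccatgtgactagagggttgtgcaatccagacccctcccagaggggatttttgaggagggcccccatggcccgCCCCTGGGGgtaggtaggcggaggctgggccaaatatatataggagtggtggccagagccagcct

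Blnk, chr19:40994222-40994471, minus strand: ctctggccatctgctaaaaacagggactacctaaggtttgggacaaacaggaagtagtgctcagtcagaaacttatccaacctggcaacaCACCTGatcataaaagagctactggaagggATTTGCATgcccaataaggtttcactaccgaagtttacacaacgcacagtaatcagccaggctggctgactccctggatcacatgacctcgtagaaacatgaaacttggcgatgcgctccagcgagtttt

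Cd79a, chr7:24897247-24897496, plus strand: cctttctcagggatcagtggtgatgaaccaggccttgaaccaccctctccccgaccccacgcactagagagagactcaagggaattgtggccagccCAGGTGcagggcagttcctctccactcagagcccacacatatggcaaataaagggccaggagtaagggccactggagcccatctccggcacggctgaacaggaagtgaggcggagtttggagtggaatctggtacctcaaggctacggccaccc

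The EBF1 letters lay 48 to 41 bases before the start of Cd22, and as 2 overlapping matches within 65 to 57 bases before that of Spib. Of 32851 upstream windows of that length in the RefSeq table, 11.8% held them on either strand. The octamer lay 130 to 123 bases before the start of Blnk, and 1.60% of windows held it. The E2A letters occurred in the windows of Cd79a, Cd22, Blnk and Cr2, against 17.2% of all windows. The PU.1 and SPIB letters, in 2.44% of all windows, had no match in the 6 windows, and the window of Pax5 had none of the 4 motifs. These matches are letters only, and no binding was measured. A link between a match and a difference in the Pb arrays was not tested.

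The arrays limit what can be read. Values start from log2 of the deposited intensity, on a scale where the median of each array is close to 0. Gene levels and differences below are given after the position correction described next, unless they are named as deposited or another setting is named. Precision is set by the number of arrays. Across probes Pb replicate 3 had r between 0.045 and 0.048 with the controls, against 0.94 to 0.95 among controls. Pb replicate 2 had r of 0.66 to 0.67 as deposited and 0.92 after a smooth surface over array position and level was removed from each array, a gain that is partly built in because the surface was fitted to departures from a mean in which the controls take part. Its corrected values stayed wider, with a scaled median absolute deviation from the control mean of 0.50, against 0.30 for Pb replicate 1 and 0.23 to 0.26 for each control against the other controls. Array rows 402 to 409 were left out because the controls did not follow each other there (r 0.038 to 0.17).

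As a check of the tissue, 8 of the 9 B lineage probes lay well above the array median after correction, in both Pb arrays and in all 3 controls. The exception was Pax5, which was below the median on each of these arrays but above the level of -1.56 that a probe needed to be tested. For Pb replicate 2 this check is partly built in by the correction. As deposited, that array had Blnk at 0.23, Cr2 at 0.68 and Blk at 1.42, against 2.95, 4.39 and 2.99 after correction. Cd22 went the other way there, from 5.40 to 3.94. Ighm, the heavy chain of IgM, had 5 probes, and only the probe with the highest mean was read. After correction it was at 8.05 and 8.15 in the Pb arrays, and at 8.27, 8.06 and 8.20 in the controls. In RNA from whole spleen, fewer B cells and less RNA per B cell cannot be told apart.

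**Figure D1:**
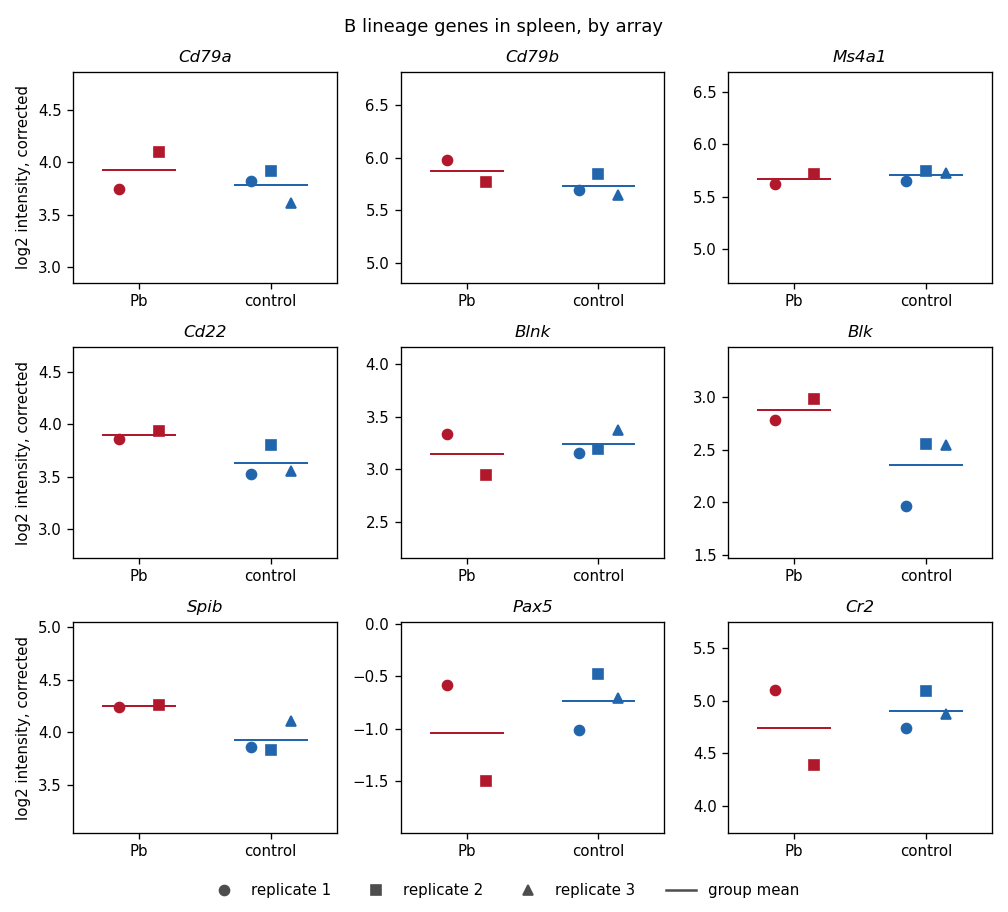
Position-corrected log2 intensity of the 9 genes (vertical axes, each spanning the same range) in 2 Pb and 3 control spleens; each point is 1 array, its shape gives the replicate number and the bar is the group mean. Cd22, Blk and Spib have both Pb arrays above all 3 controls, while the 2 Pb arrays of Pax5 and Cr2 lie farthest apart, by 0.91 and 0.71.

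Neither signalling chain of the receptor passed the test. Cd79a was at 3.75 and 4.10 in Pb replicates 1 and 2, against 3.82, 3.92 and 3.62 in control replicates 1 to 3. Its highest array was Pb replicate 2, and Pb replicate 1 lay within the controls, so the groups overlapped. The log2 difference was 0.14 (SE 0.20, 95% confidence interval -0.35 to 0.62, limma adjusted p = 0.821). Cd79b was at 5.97 and 5.76 in the Pb arrays, against 5.69, 5.85 and 5.65 in controls. Here Pb replicate 1 was the highest array and Pb replicate 2 lay among the controls. Its difference was also 0.14 (SE 0.17, interval -0.29 to 0.57, limma adjusted p = 0.793). For both chains the interval of this fit leaves out a 2-fold change either way.

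Among the surface proteins, Ms4a1, which encodes the B cell antigen CD20, had the tightest controls. It was at 5.62 and 5.72 in the Pb arrays, against 5.65, 5.74 and 5.72 in controls, with Pb replicate 1 the lowest array and Pb replicate 2 among the controls. The difference was -0.035 (SE 0.16, interval -0.43 to 0.36, limma adjusted p = 0.951), which in folds runs from 0.744 to 1.28. Cd22, the sialic acid-binding inhibitory receptor of B cells, was at 3.86 and 3.94 in the Pb arrays, against 3.52, 3.81 and 3.55 in controls. Both Pb arrays lay above every control, by a narrow margin over control replicate 2. Its difference of 0.27 (SE 0.18, interval -0.17 to 0.70) did not pass (limma adjusted p = 0.643).

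Cr2 encodes complement receptor 2, which is found on B cells, most of all in the marginal zone, and on follicular dendritic cells. It was at 5.10 and 4.39 in the Pb arrays, against 4.75, 5.10 and 4.88 in controls. Pb replicate 1 was level with the highest control and Pb replicate 2 was the lowest array. The 2 Pb arrays were 0.71 apart, while the 3 controls spanned 0.35. The difference was -0.16 (SE 0.26, interval -0.80 to 0.48, limma adjusted p = 0.841).

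Of the signalling proteins inside the cell, Blk had the widest difference of the 9 genes in the fit of all 5 arrays. The kinase transcript was at 2.78 and 2.99 in the Pb arrays, against 1.97, 2.56 and 2.55 in controls. Both Pb arrays lay above every control, and control replicate 1 lay well under the other 2 controls, giving Blk the widest control SD of the 9 genes, 0.34. The difference was 0.53 (SE 0.24, interval -0.071 to 1.12), and it did not pass (limma adjusted p = 0.622). Its interval takes in a rise of up to 2.18-fold. Its rank depended on single arrays: Pax5 was wider without control replicate 1 (-0.41, against 0.34 for Blk) and without Pb replicate 1 (-0.78, against 0.66). It depended on the correction too. With a surface that ignored level Cr2 was widest (-0.91, against 0.0034 for Blk), as it was without position correction (-1.805, against -0.13). Blnk, the adaptor, was at 3.34 and 2.95 in the Pb arrays, against 3.16, 3.19 and 3.37 in controls. Pb replicate 1 lay among the controls and Pb replicate 2 was the lowest array, with a difference of -0.10 (SE 0.20, interval -0.58 to 0.38, limma adjusted p = 0.870).

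The transcription factors had differences of opposite sign, neither of which passed. Spib was at 4.24 and 4.26 in the Pb arrays, against 3.86, 3.83 and 4.11 in controls. Both Pb arrays lay above every control and were 0.022 apart, the closest Pb pair of the 9 genes. Its difference of 0.32 (SE 0.18, interval -0.11 to 0.75) did not pass (limma adjusted p = 0.622). Pax5 was at -0.58 and -1.50 in the Pb arrays, against -1.01, -0.47 and -0.71 in controls. Pb replicate 1 lay within the controls and Pb replicate 2 was the lowest array, close to the level at which probes were no longer tested. The difference was -0.31 (SE 0.32, interval -1.10 to 0.47, limma adjusted p = 0.747), so the interval takes in a fall to 0.468-fold.

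**Figure D2:**
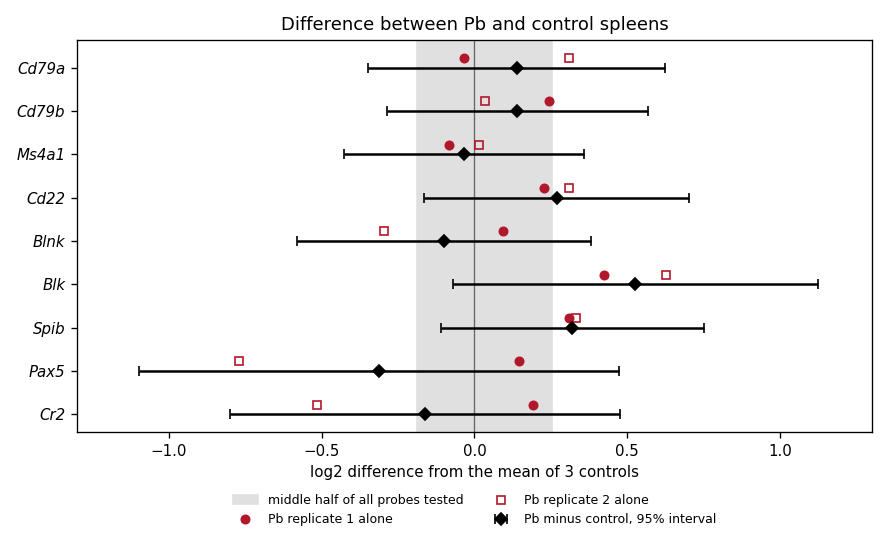
Log2 difference from the mean of 3 control arrays (horizontal axis) for each gene; diamonds with bars are the difference of 2 Pb arrays and its 95% confidence interval in limma, red marks are each Pb array alone, and the grey band runs from the lower to the upper quartile of all probes tested. All 9 intervals include 0, and Blk and Pax5 are the genes whose intervals reach beyond a 2-fold change.

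Over the 9 genes, 0 rose and 0 fell at an adjusted p of 0.05 in limma, and 0 of 9 had an unadjusted p of 0.05 or less. Among all 24464 probes tested, 0.0613% were called higher (15 probes), 0% were called lower, and 7.18% had an unadjusted p of 0.05 or less. Intervals of 7 of the 9 genes left out a 2-fold change in either direction, which held for 5 of 9 with the replicate number as a block, for 3 of 9 with a surface that ignored level and for 0 of 9 without position correction. The differences had a median of 0.14 and ran from -0.31 to 0.53, with 5 above 0 and 4 below, beside a median over all probes of 0.030 and quartiles of -0.19 and 0.25. In size, 5 of the 9 differences were under the median absolute difference of all probes, 0.22. For 3 of 9 genes both Pb arrays exceeded every control, as they did for 14.0% of all probes, and for 0 of 9 both were under every control, as they were for 12.7%. With 9 genes, those shares are too coarse to set the genes apart from other probes.

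Each Pb array was also set against the controls on its own. In Pb replicate 1, 7 of the 9 genes were above the control mean, with differences from -0.084 (Ms4a1) to 0.42 (Blk) and a median of 0.19, against a median of -0.0064 over all probes. In Pb replicate 2, 6 of 9 were above, with differences from -0.77 (Pax5) to 0.63 (Blk) and a median of 0.036, against 0.065 over all probes. Medians of that size occurred among controls too. The genes of control replicate 2 had a median of 0.20 over the mean of the other 2 controls (7 of 9 above), those of control replicate 1 a median of -0.13 (8 of 9 below) and those of control replicate 3 a median of 0.025.

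Pb replicate 1 lay above all 3 controls for 5 of the 9 genes and below them for 1, where 27.7% and 30.6% of all probes did. The 5 include Cr2, which was all but level with its highest control (5.1, against 5.099 in control replicate 2). Pb replicate 2 lay above for 4 and below for 3, where 40.6% and 31.5% did. Of the 9 genes, 4 had both Pb arrays on the same side of the control mean after correction, namely Cd79b, Cd22, Blk and Spib, all above it. The same share over all probes was not computed, so this count does not set the genes apart. As deposited, Cd79b (-2.705), Blk (-0.87) and Spib (-0.96) in Pb replicate 2 were below the control mean, as was Cd22 (-0.30) in Pb replicate 1. Blk stood high in both Pb arrays, above 91.3% of all probes' differences in replicate 1 and 84.8% in replicate 2. Pax5 and Cr2 disagreed most between the Pb arrays, by 0.91 and 0.71, with Pax5 above 69.0% of probes in replicate 1 and 8.23% in replicate 2. When Pb replicate 2 was the lone Pb array, Pax5 had a difference of -0.78 (limma adjusted p = 0.109) and Cr2 of -0.49 (adjusted p = 0.169). With Pb replicate 1 alone they had 0.15 (adjusted p = 0.872) and 0.19 (adjusted p = 0.786).

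What was removed from Pb replicate 2 was larger than any difference left. At the 9 probes the surface took away between -3.72 (Cr2) and 1.46 (Cd22) from that array, against -0.70 (Cd79a) to 0.24 (Cr2) from Pb replicate 1 and -0.57 to 0.30 from the controls. As deposited, Cr2 in Pb replicate 2 had an intensity of 1.60, against 25.2, 33.6 and 26.3 in controls, a log2 difference from the control mean of -4.14 that became -0.51 after correction. The difference of Cd22 in that array was 1.65 as deposited and 0.31 after correction. In Pb replicate 1, that of Cd79a was -0.91 as deposited and -0.034 after correction, and that of Cr2 was 0.53 and 0.19. Cd22 there was below all 3 controls as deposited (-0.30 from their mean) and above them after correction (0.23). Blk and Spib in Pb replicate 2 were also below all controls as deposited, at -0.87 and -0.96 from the control mean, so for Cd22, Blk and Spib the place of both Pb arrays above the controls rests on the correction. The error of that surface is carried into the 9 values of Pb replicate 2.

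**Figure D3:**
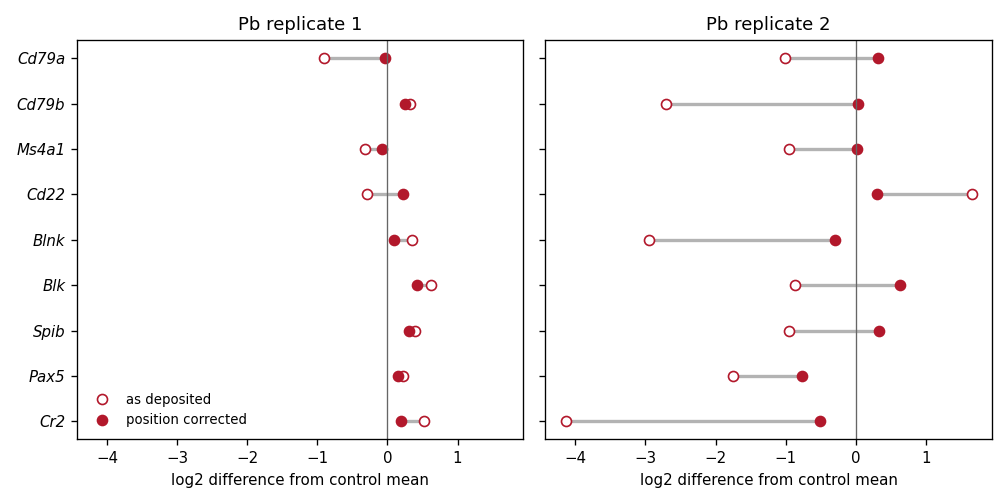
Log2 difference of each Pb array from the mean of 3 controls (horizontal axes, one panel per Pb array), as deposited (open) and after position correction (filled). In Pb replicate 2, the deposited values run from -4.14 (Cr2) to 1.65 (Cd22) and the corrected ones from -0.77 to 0.63; in Pb replicate 1 the deposited values run from -0.91 (Cd79a) to 0.62 (Blk) and the corrected ones from -0.084 to 0.42.

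The 9 probes lie in 8 array rows from 26 to 400, with Cd79a and Ms4a1 both in row 154 and Blk in row 400, beside the rows left out. Probes within 1 row and 3 columns of each, 7 to 13 per gene, had median differences from the control mean of -0.49 to 0.21 in Pb replicate 1 and -0.20 to 0.59 in Pb replicate 2. The low end in Pb replicate 1 was beside Cd79a, and the high end in Pb replicate 2 was beside Cd79b, whose own difference there was 0.036. The neighbours of Blk were at 0.065 and 0.31 in Pb replicates 1 and 2, under its own 0.42 and 0.63. The neighbours of Spib were at -0.0079 and 0.029, and those of Cd22 at -0.0050 and -0.15. How far a local remnant of position adds to these differences was not tested.

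Other genes of the same cells and pathway were read from lists. The 22 measured genes of receptor signalling had 0 called and a median of -0.049. The widest differences were in Pik3cd, a catalytic subunit of phosphoinositide 3-kinase (-0.57), Grb2, an adaptor (0.56), and Sh3bp5, a protein that binds BTK (0.47). Syk, the kinase that binds the phosphorylated CD79 chains, was at 4.10 and 3.61 in the Pb arrays, against 3.71, 4.05 and 3.65 in controls. Btk, which acts just after it, was at 2.49 and 2.35, against 2.43, 2.44 and 2.52. Both overlapped the controls. The 14 genes of inhibitory receptors and phosphatases had 0 called and a median of 0.092, with Fcgr2b, the inhibitory Fc receptor, at -0.80, Csk, a kinase that restrains Src kinases, at 0.42, and the lipid phosphatase Inpp5d at 0.33. For Fcgr2b the difference came from Pb replicate 2 (-1.57), while Pb replicate 1 was at -0.025. The same held for Pik3cd (-1.19, against 0.052 in Pb replicate 1), Csk (0.85, against -0.017) and Inpp5d (0.69, against -0.031). Grb2 and Sh3bp5 were above the control mean in both Pb arrays.

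Lineage transcription factors gave 0 calls among 19 tested of 21 measured, with a median of 0.043. Irf8 (-0.52), Etv6 (0.49) and Pou2af1, the coactivator of octamer factors (-0.44), differed most, and Pou2af1 was below all controls in both Pb arrays. For Irf8 the difference came from Pb replicate 2 (-1.03), while Pb replicate 1 was at -0.0081. Ebf1 was at 4.17 and 3.45 in the Pb arrays, against 4.26, 3.99 and 3.80 in controls. Among 23 genes of the mature B cell surface and survival 0 were called, and the median was -0.065. The widest were H2-Ob, a chain of the class II regulator H2-O (-0.69), the activation antigen Cd69 (-0.63) and Ralgps2 (-0.52). H2-Ob was at -1.405 from the control mean in Pb replicate 2 and 0.029 in Pb replicate 1, while Cd69 and Ralgps2 were lower in both. In this list both Pb arrays lay below every control for 6 of 23 genes, Cd69 and Ralgps2 among them, and above for 3. Over all probes the shares were 12.7% below and 14.0% above. Whether the list departs from those shares was not tested. Fcer2a, the low-affinity IgE receptor of follicular B cells, was at 4.50 and 4.22 in the Pb arrays, against 4.41, 4.22 and 4.37 in controls, and Cd37 at 5.33 and 5.14, against 5.09, 5.28 and 5.22. Genes given here beside the widest of each list were picked after their values were seen.

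Lists of B cell stages and subsets gave no calls. The marginal zone and B1 list (10 tested of 12 measured, 0 called, median 0.012) had Dtx1 at 0.38, Notch2 at 0.36 and Mzb1 at -0.28. The list of immature B cells and precursors (12 of 14, 0 called, median 0.033) had Erg at -0.73, Sox4 at -0.61 and Igll1, a part of the surrogate light chain, at 0.40. Plasma cell and germinal centre genes (10 of 12, 0 called, median 0.023) had Gcsam at 0.51, Sdc1 at -0.49 and Il21r at 0.36. The 4 immunoglobulin genes measured (0 called, median -0.017) had Igha at 0.50, Iglv1 at -0.24 and Ighm at -0.075. Several of these differences came from Pb replicate 2: Erg (-1.63, against 0.16 in Pb replicate 1), Gcsam (1.03, against -0.0093) and Igha (1.17, against -0.17). So did those of Mzb1 (-0.75, against 0.19) and Iglv1 (-0.49, against 0.013). Dtx1, Notch2, Sox4, Igll1, Sdc1, Il21r and Ighm had both Pb arrays on the same side of the control mean. Of 20 variable segments, 16 were tested, 0 were called and the median was 0.10. Igkv14-126 had 1.35 (SE 0.42, limma adjusted p = 0.622), Igkv6-20 0.52 and Igkv19-93 -0.40. Igkv19-93 was lower in Pb replicate 1 alone (-0.98, against 0.18 in Pb replicate 2). Segments of the same family can be alike in sequence, and whether 1 probe binds several was not tested.

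**Figure D4:**
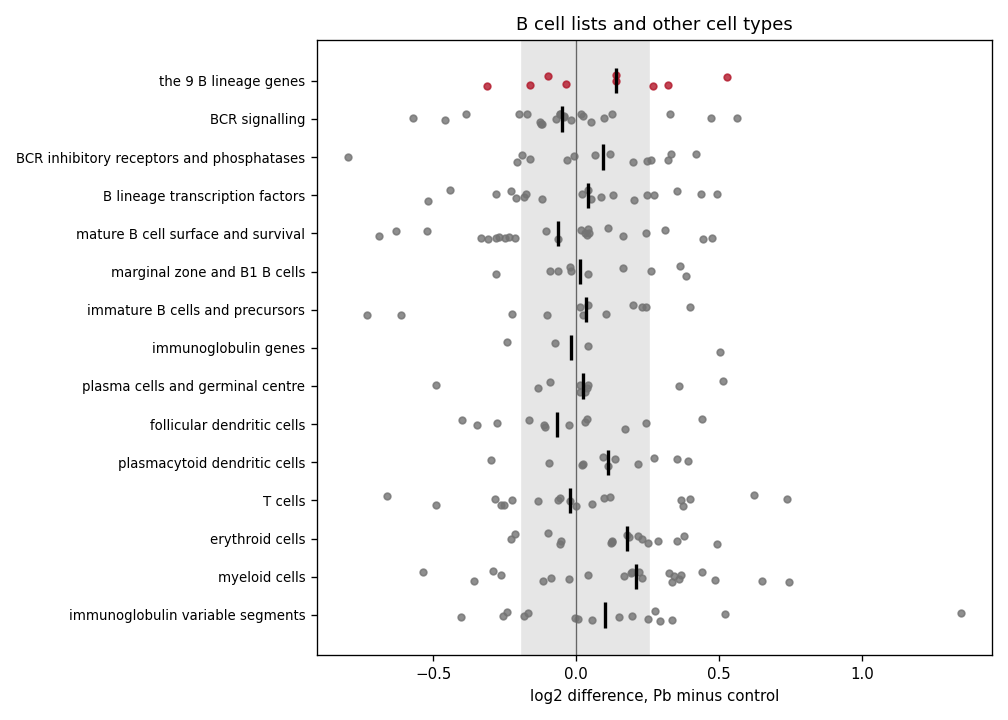
Log2 difference, Pb minus control, for tested genes of each list (points), with the list median (black bar) and the quartile range of all probes (grey band); the 9 B lineage genes are in red. All medians lie inside the grey band, and the pancreatic exocrine list, which lies far to the right, is not drawn.

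Markers of other cells were set beside these. Their lists are not wholly separate from those above. Fcer2a was counted again under follicular dendritic cells, and Tcf4 under both lineage transcription factors and plasmacytoid dendritic cells. Follicular dendritic cells also express Cr2, and their list gave 0 calls among 12 tested of 13 measured and a median of -0.068, with Clu at 0.44, Ltbr at -0.40 and Pdpn at -0.35. Cxcl13, the chemokine that draws B cells into follicles, was at 5.84 and 5.60 in the Pb arrays, against 5.71, 5.99 and 5.79 in controls. Plasmacytoid dendritic cells also express Spib and Blnk. Their list had 0 calls among 11 tested of 12 measured and a median of 0.11, with Siglech at 0.39, Tcf4 at 0.35 and Upb1 at -0.30. Siglech was at 0.78 from the control mean in Pb replicate 2 and 0.0052 in Pb replicate 1, while Tcf4 and Upb1 each differed in both. T cell genes (19 tested, 0 called, median -0.023) had Cd3e at 0.74, Cd28 at -0.66 and Cd247 at 0.62. Erythroid genes (17 tested, 0 called, median 0.18) had Hbb-y at 0.49, Slc4a1 at 0.38 and Ank1 at 0.35, and myeloid genes (22 tested, 0 called, median 0.21) had Lyz1 at 0.74, Ltf at 0.65 and Marco at -0.53. Slc4a1 and Ank1 were above the control mean in Pb replicate 2 alone (0.80 and 1.01). Ltf was at 1.225 in Pb replicate 1 and 0.073 in Pb replicate 2.

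The mean log2 level of the 17 erythroid genes was 4.91 and 5.56 in Pb replicates 1 and 2, against 4.92 to 5.19 in controls, and that of the 9 B lineage genes was 3.79 and 3.62, against 3.49 to 3.73. Pancreatic exocrine genes were the exception among the lists. Of 20 tested, 10 rose and 0 fell in limma: Amy2a5, Try5, Cpa1, Cela3b, Cpb1, Ctrc, Pla2g1b, Sycn, Spink1 and Rnase1. Control means of 5 of these (Amy2a5, Try5, Cpa1, Cela3b and Cpb1) lay under the level needed for testing, so they were tested only through their Pb arrays. Both the calls of these 5 and the size of their differences are therefore uncertain. Without the filter on dim probes, 0 of 34949 probes were called in limma. The mean level of the 21 measured was 2.63 and 3.13 in the Pb arrays, against -1.06 to -0.70 in controls. The part of that RNA in the levels of the B lineage genes was not tested.

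The median profile of the 9 genes over the 5 arrays, each gene centred on its own mean, was 0.18 and 0.028 in Pb replicates 1 and 2, against -0.096, 0.062 and 0.031 in control replicates 1 to 3. Among 15881 tested probes of other single-symbol genes, the nearest by root mean square difference over these 5 arrays were Tln1 (0.043), Olfr572 (0.044), Pou5f1 (0.045) and Furin (0.045). Of these probes 186 were nearer to the profile than Cd79b, the nearest of the 9 genes themselves (0.078). Pax5 (0.34) and Blk (0.29) were the farthest.

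In the 6 arrays as deposited, with Pb replicate 3 included and no correction, the median difference of the 9 genes was -2.44, against -0.40 over all probes, and 8 of the 9 were below 0. Again 0 of 9 were called in limma, beside 0% of 24911 probes (0 probes), with adjusted p from 0.538 to 0.793 for the 9. Without Pb replicate 3, and still uncorrected, the median of the 9 genes was -0.77. In Pb replicate 3 the log2 difference from the control mean was -9.29 for Cr2 and -7.27 for Ms4a1, and 4.37 for Pax5, on an array whose values did not follow the probes.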

How the data were processed

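The authors' deposited values are linear intensity values of CodeLink mouse whole genome arrays read in 1 colour, per the labels. Their medians, 0.972 to 0.987, point to a division by a median per array; background correction and exact normalisation are not stated in the labels. Values at or under 0 (151 to 711 per array) were set to the 1st percentile of positive values on that array before log2 was taken. Probe names came from the platform annotation, and several-symbol probes were not used.

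Pb replicate 3 and array rows 402 to 409 (638 of 35587 probes) were left out. Each array was set against the average of the controls and Pb replicate 1, and a smooth surface fitted to that departure was subtracted, 2 times over (mgcv 1.9.3, tensor products of row with level and row with column, basis functions 40, 6 and 8). Probes with a mean at or above the 30th percentile, 24464, were fitted across all with limma 3.58.1 in R 4.3.3 (lmFit, eBayes, two-sided, Benjamini-Hochberg) and the code was tested on artificial data. Intervals are 95% limits of that fit, which takes the subtracted surface as known. Without the correction the SE of Cr2 was 1.24, against 0.26 with it. For lists, the probe with the highest mean stood for a gene.

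The members, lists, arrays used and correction were chosen with earlier results of these data known. Named are all members, and in other lists the genes that passed or else the 3 widest differences, plus the 4 nearest profiles; Syk, Btk, Ebf1, Fcer2a, Cd37 and Cxcl13 were added after their values were seen. The list of variable segments was added by symbol later.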

Additional observations from a re-analysis of the deposited data

How the results depend on the processing

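In limma, 0 of the 9 genes were called under each of 18 alternatives, and 161 of 161 comparisons of a gene with an alternative stayed uncalled, 22 of them with a changed sign. Pax5 was under the filter at the 50th percentile. With position correction the signs changed in 12 of 143. Since nothing was called, this says little on how firm the differences are. Cd22 and Blk kept their sign in 16 of 16 such settings (0.060 to 0.37 and 0.0034 to 0.66), while Cd79a ran from -0.46 to 0.27, Cd79b from -0.67 to 0.25, Ms4a1 from -0.59 to 0.026, Blnk from -0.67 to 0.095, Spib from -0.25 to 0.41, Pax5 from -0.78 to 0.15 and Cr2 from -0.91 to 0.19. The median difference of the 9 genes, 0.14, became -0.77 without position correction, -0.048 with 15 row basis functions, -0.46 with a surface that ignored level and -2.44 in the 6 arrays as deposited, where the median of all probes was -0.14, 0.035, -0.21 and -0.40. With 1 array left out it ran from 0.011 (without control replicate 3) to 0.19. Where 1 Pb array is left, its spread is taken to equal that of the controls. The surface without level and the one from control means alone were added after the data had been seen. The 15 probes called became 0 without position correction, 0 without the filter on dim probes, 0 in the 6 arrays as deposited, 7 with array weights, and from 2 to 2926 when single arrays were dropped (2926 without Pb replicate 1, and 4, 2 and 4 without control replicates 1, 2 and 3). With the replicate block 7 probes passed in place of 15 and the median of the 9 genes was 0.054; deviations of arrays with the same number had r of 0.060 and 0.010, and with 2 such pairs the samples are taken to share only a number. Among fits with both Pb arrays kept, 1 of the 9 genes had an unadjusted limma p under 0.05 with the pseudocount, where 8.73% of all probes did. With the surface without level 1 of the 9 did, beside 9.82% of all probes. The cause of these shifts was not tested. Low signal limits Pax5.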
